A study of Homo sapiens with 6 samples.

Results

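The nuclear genes for the subunits of the mitochondrial respiratory chain were followed after minocycline or vehicle in HEK293, a widely used human cell line that was first grown from embryonic kidney. The genes were chosen by name: protein-coding genes whose symbols mark them as subunits of complexes I to V, with assembly factors and pseudogenes left out. Of 57820 genes in the deposited table, 88 met this rule, 37 in complex I, 4 in complex II, 10 in complex III, 19 in complex IV and 18 in complex V. NDUFA4 and NDUFA4L2, once listed with complex I, were counted with complex IV. The readthrough loci ATP5MF-PTCD1 and NDUFC2-KCTD14, which join a subunit gene to its neighbour, held at most 4 counts in a library and were kept apart. The 3 minocycline cultures had received 100 µM of the drug for 12 h, and the 3 control cultures had received its vehicle, DMSO, for the same time. Neither group was heat shocked. Minocycline is a tetracycline antibiotic, a class of drugs that can bind mitochondrial as well as bacterial ribosomes. Total RNA was sequenced, and the 3 libraries of a group are biological replicates whose number is also given as their batch.

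The respiratory chain sits in the inner mitochondrial membrane. Complex I takes electrons from NADH and complex II takes them from succinate, complex III passes them from ubiquinol to cytochrome c, complex IV hands them to oxygen, and complex V uses the resulting proton gradient to make ATP. Complexes I, III, IV and V combine subunits made in the cytosol from nuclear genes with a few made inside mitochondria from mitochondrial DNA, whereas complex II is wholly nuclear. In many cell types the nuclear genes are under the shared control of the factors NRF1, GABPA and YY1.

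The libraries held 17303180 to 17835756 counts. Transcripts typical of this line were present in all 6, with 9424 to 14969 counts for the intermediate filament gene VIM, 1159 to 1556 for NEFM, 328 to 468 for INA and 48 to 93 for the kidney factor PAX2, while the leukocyte, liver, muscle and lung markers PTPRC, CD3E, ALB, MYH7 and SFTPC had 0 to 4. Control replicate 1 stood apart from the other controls. On the first principal component of log2 expression, which held 52.9% of the variance, minocycline replicates 1, 2 and 3 were at -14.0, -32.3 and 3.06, and control replicates 1, 2 and 3 were at -34.9, 31.1 and 47.1. Results are therefore given with and without that library. It was picked after its values were seen. Leaving out a control that lies with the minocycline libraries on this component draws the groups apart there. Calls and adjusted p without it hold only under that choice and are no separate support for a difference.

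The motifs of these regulators were looked for in the promoters of the subunit genes, whose transcripts leaned the same way between the libraries. RefSeq promoter sequences, each covering 250 bases before to 50 bases after a transcription start (GRCh37), were in the table for 69 of the 88 genes, as 82 promoters. The NRF1 motif GCGCANGCG was present on either strand in 24 of them (29.3%), against 7.52% of all 35116 promoters. The ETS motif CCGGAAG, which GABPA binds, was present in 26.8% against 10.3%, and the YY1 motif AAGATGGCG in 12.2% against 1.75%. The amino acid response motif TGATGNAA of ATF4 was present in 2.44% against 3.62%. Members with more than 1 start share sequence between their promoters, matches of a motif that overlap each other were merged, and a match of letters is not a measured binding site. The promoter with the most NRF1, ETS and YY1 matches in each complex shows how these motifs lie. They belong to NDUFB4, an accessory subunit of complex I (chr3:120314933-120315232, plus strand), SDHA of complex II (chr5:218185-218484, plus strand), UQCR11 of complex III (chr19:1605412-1605711, minus strand), COX5B of complex IV (chr2:98262275-98262574, plus strand; a promoter of COX6A1 had as many) and ATP5ME of complex V (chr4:668016-668315, minus strand). Each is written 5′ to 3′ along its gene, with motif matches on either strand in capitals.
NDUFB4: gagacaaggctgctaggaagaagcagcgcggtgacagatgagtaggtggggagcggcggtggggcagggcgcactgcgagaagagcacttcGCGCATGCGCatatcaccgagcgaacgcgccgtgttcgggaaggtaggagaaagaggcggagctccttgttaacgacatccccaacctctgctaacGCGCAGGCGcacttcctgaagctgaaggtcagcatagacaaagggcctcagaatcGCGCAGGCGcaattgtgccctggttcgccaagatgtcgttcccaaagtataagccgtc
SDHA: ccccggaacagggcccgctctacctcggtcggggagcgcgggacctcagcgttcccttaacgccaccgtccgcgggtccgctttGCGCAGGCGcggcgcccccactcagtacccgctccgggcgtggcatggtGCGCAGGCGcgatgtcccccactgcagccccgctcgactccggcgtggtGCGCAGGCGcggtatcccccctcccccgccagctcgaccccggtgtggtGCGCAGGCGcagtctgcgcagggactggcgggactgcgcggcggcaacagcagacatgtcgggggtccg
UQCR11: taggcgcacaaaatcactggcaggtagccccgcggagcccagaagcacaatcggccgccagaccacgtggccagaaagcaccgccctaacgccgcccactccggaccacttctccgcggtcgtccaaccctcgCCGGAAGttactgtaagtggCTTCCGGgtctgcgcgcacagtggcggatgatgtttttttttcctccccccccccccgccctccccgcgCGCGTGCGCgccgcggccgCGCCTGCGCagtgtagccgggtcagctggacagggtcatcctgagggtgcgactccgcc
COX5B: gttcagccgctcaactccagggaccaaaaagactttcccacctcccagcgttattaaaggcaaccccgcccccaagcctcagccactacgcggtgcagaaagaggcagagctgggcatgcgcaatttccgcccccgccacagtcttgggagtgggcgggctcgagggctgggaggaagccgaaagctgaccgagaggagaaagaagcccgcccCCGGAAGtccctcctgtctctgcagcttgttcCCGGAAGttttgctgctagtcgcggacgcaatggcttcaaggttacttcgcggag
ATP5ME: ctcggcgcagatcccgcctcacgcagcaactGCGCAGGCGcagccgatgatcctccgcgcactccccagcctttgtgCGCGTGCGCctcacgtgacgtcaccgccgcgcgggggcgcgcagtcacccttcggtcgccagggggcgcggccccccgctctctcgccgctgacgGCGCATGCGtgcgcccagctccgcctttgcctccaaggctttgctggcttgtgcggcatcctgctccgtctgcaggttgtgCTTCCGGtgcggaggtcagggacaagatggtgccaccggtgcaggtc
NDUFB4 and SDHA carried NRF1 matches alone, 3 and 4 of them, COX5B carried 2 ETS matches alone, and UQCR11 and ATP5ME carried both kinds.

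Across the 5 complexes no subunit transcript passed the test for a difference between minocycline and control cells. With edgeR's quasi-likelihood test and Benjamini-Hochberg adjustment over 17225 genes, 0 of the 82 subunit genes that passed the filter on low counts were called lower and 0 were called higher at an adjusted p under 0.05, against 0% of all genes tested called lower and 0.0522% called higher, and the smallest adjusted p among the subunits was 0.820. At an unadjusted p under 0.05, 3 were lower (NDUFB2, UQCRFS1 and ATP5MC1) and 1 was higher (NDUFA4L2), against 1.97% and 2.72% of all genes. The 6 subunit genes that did not pass the filter were COX4I2, COX6A2 and COX7B2, with 0 counts in all libraries, and COX7A1, COX8C and ATP5MGL, with at most 5 counts in a library.

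Although no single gene passed, the fitted values leaned to 1 side. With minocycline over control, 77 of the 82 genes (93.9%) had a fitted log2 fold change below 0 and 5 had one above 0, against 47.9% of all genes below 0. The median log2 fold change was -0.29 over the 82 genes, with an interquartile range of -0.35 to -0.16, and 0.01 over all genes. By complex it was -0.30 in complex I, -0.19 in complex II, -0.30 in complex III, -0.27 in complex IV and -0.32 in complex V. Differences between complexes were not tested. These are bulk libraries, in which fewer cells holding a transcript and less of it per cell cannot be told apart.

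**Figure D1:**
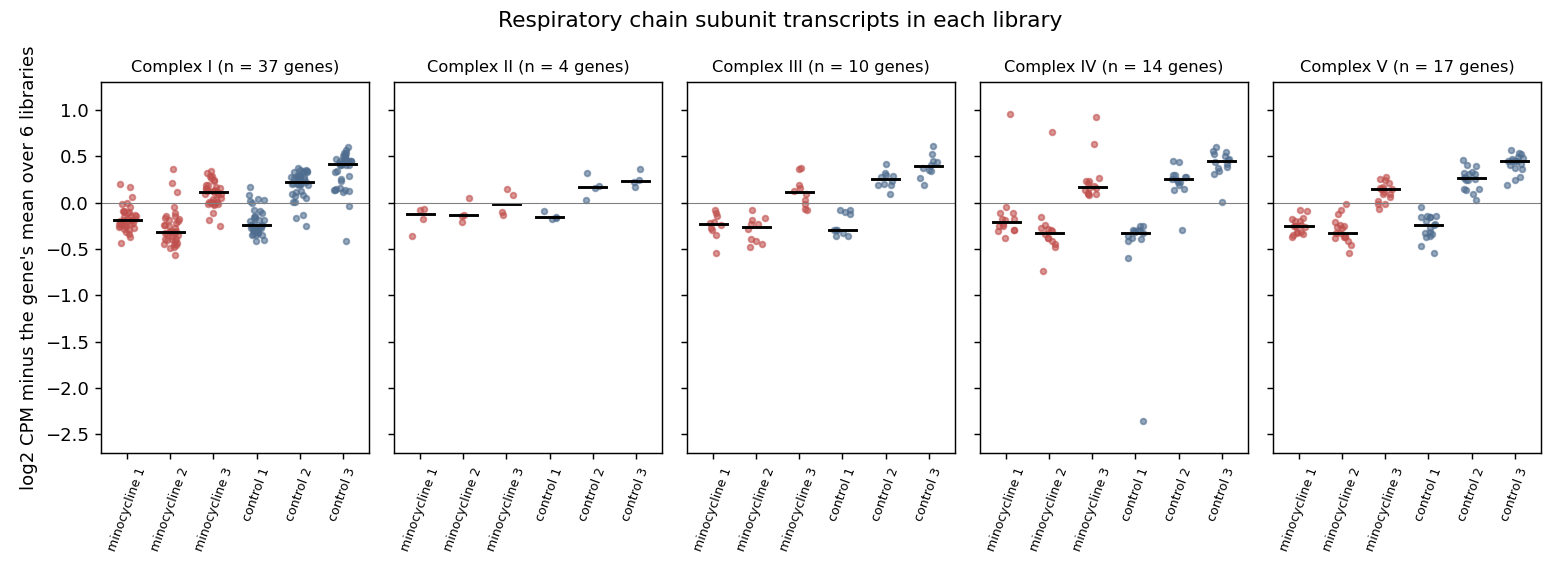
Log2 CPM of each subunit gene in each library, minus the gene's mean over the 6 libraries, by complex. Each point is a gene and each black bar is the median of a complex in a library, minocycline libraries in red and control libraries in blue. By the medians, control replicate 1 lies with minocycline replicates 1 and 2 in every complex. The median of minocycline replicate 3 lies between these and the medians of control replicates 2 and 3.

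The libraries of the groups overlapped. Taken as the median deviation of the 82 genes from their own means on the log2 scale, minocycline replicates 1, 2 and 3 were at -0.21, -0.31 and 0.12, and control replicates 1, 2 and 3 at -0.27, 0.25 and 0.42. Control replicate 1 was thus as low as the lower minocycline libraries. For 70 of the 82 genes control replicate 3 held the highest level, and the lowest was in minocycline replicate 2 for 38, in control replicate 1 for 28 and in minocycline replicate 1 for 11. For 0 genes were all minocycline libraries under all control libraries, and for 1, NDUFA4L2, all were above them, against 3.56% and 5.74% of all genes. Within batches 1, 2 and 3 the median log2 difference, minocycline minus control, was 0.04, -0.53 and -0.30. The median of the 82 genes was thus not lower in the first batch, where single genes ran either way.

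How many subunit genes passed turned on control replicate 1. Without it, 47 of the 82 genes (57.3%) were called lower and 1 was called higher, against 8.34% of all genes called lower and 9.52% called higher, and the median log2 fold change was -0.45. The 47 were 20 of 37 in complex I, 1 of 4 in complex II, 6 of 10 in complex III, 8 of 14 in complex IV and 12 of 17 in complex V. With any other single library left out, 0 were called in either direction, against at most 0.00564% of all genes called lower and 0.0454% called higher, and the median was -0.45 without minocycline replicate 3 and -0.15 without control replicate 3. In a fit with 1 surrogate variable 54 of the 82 were fitted lower, the median was -0.02, and complex IV had a median of 0.02.

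The libraries had the same order in the share of counts from the subunits and in that from the genes of the cytosolic ribosome. Transcripts of the 82 genes and the 6 others took 0.994%, 0.956% and 1.18% of all counts in minocycline replicates 1, 2 and 3, and 0.957%, 1.24% and 1.33% in control replicates 1, 2 and 3. The genes of the cytosolic ribosome, 86 in the table, took 8.33%, 7.34% and 10.8% in the minocycline libraries and 7.40%, 11.0% and 12.2% in the control libraries. Their median log2 fold change was -0.30, with 82 of 84 tested genes fitted lower and 0 called. Without control replicate 1, 45 of the 84 were called lower, against 8.34% of all genes. What sets this order of libraries, and its part in the subunit values, was not tested.

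Complex I is the largest of the complexes, and 33 of its 37 nuclear genes were fitted lower. NDUFB2, an accessory subunit of the membrane arm (chromosome 7, 140390577 to 140422590, plus strand), had the smallest p of the complex. It had 98.5, 95.3 and 121 CPM (counts scaled to library size) in minocycline libraries and 108, 152 and 161 CPM in control libraries. Control replicate 1 lay below the highest minocycline library, so the groups overlapped. The log2 fold change was -0.42 ± 0.17 (SE; edgeR adjusted p = 0.820), and the differences within batches 1, 2 and 3 were -0.14, -0.67 and -0.41, lower in 3 of 3. Without control replicate 1 it was -0.58, with an edgeR adjusted p of 0.00752.

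The same shape recurred in the next members by p. NDUFB6, also of the membrane arm, had 43.0, 41.6 and 53.1 CPM in minocycline libraries against 45.5, 62.0 and 71.7 CPM in control libraries, a log2 fold change of -0.38 ± 0.18. NDUFS8, a core iron-sulphur subunit that carries electrons towards ubiquinone, had 153, 131 and 167 CPM against 148, 202 and 226 CPM in control libraries, a log2 fold change of -0.35 ± 0.17. In both genes control replicate 1 lay within the range of the minocycline libraries. NDUFC1 and NDUFB7, small membrane-arm subunits, had log2 fold changes of -0.40 ± 0.21 each, and NDUFA2, a small subunit of the matrix arm, had the lowest of the complex at -0.42 ± 0.23. All of these had a log2 fold change of -0.51 to -0.63 without control replicate 1. Each was called lower in that fit, as were 8.34% of all genes.

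The fitted values of the core subunits, which hold the redox groups of complex I, ran to either side of 0, and differences among them were not tested. NDUFS3 and NDUFS7, next to the ubiquinone site, had fitted log2 fold changes of -0.33 ± 0.20 and -0.28 ± 0.18. A smaller value was fitted for NDUFV1, which binds NADH and flavin, at -0.14 ± 0.15. NDUFS1, the largest iron-sulphur subunit, was fitted higher, at 0.07 ± 0.13. It had 122, 141 and 113 CPM in minocycline libraries and 129, 111 and 119 CPM in control libraries, and the groups overlapped throughout. Both NDUFS1 and NDUFV1 were at these sizes within 1 SE of 0.

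The other fitted values at or above 0 in complex I were NDUFA13 at 0.26 ± 0.23, NDUFC2 at 0.08 ± 0.17 and NDUFV2 at 0.00 ± 0.34. NDUFA13, an accessory membrane-arm subunit also known as GRIM-19, had 86, 97 and 63 counts in minocycline libraries and 76, 69 and 51 in control libraries. NDUFV2, a core iron-sulphur subunit, had 25, 15 and 27 counts in minocycline libraries and 25, 17 and 22 in control libraries. Both counts are low for subunits of this complex. In the annotation 83.9% of the exon bases of NDUFA13 and 90.0% of those of NDUFV2 overlap another gene on the same strand, and a pseudogene of NDUFV2 held up to 92 counts, so the counts of these genes are uncertain. Genes fitted lower had large overlaps too, counted over both strands. They were 77.9% in NDUFA7, 72.0% in NDUFB8, 68.2% in NDUFA11 and 63.8% in ATP5PO of complex V. The counts of these are uncertain as well.

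**Figure D2:**
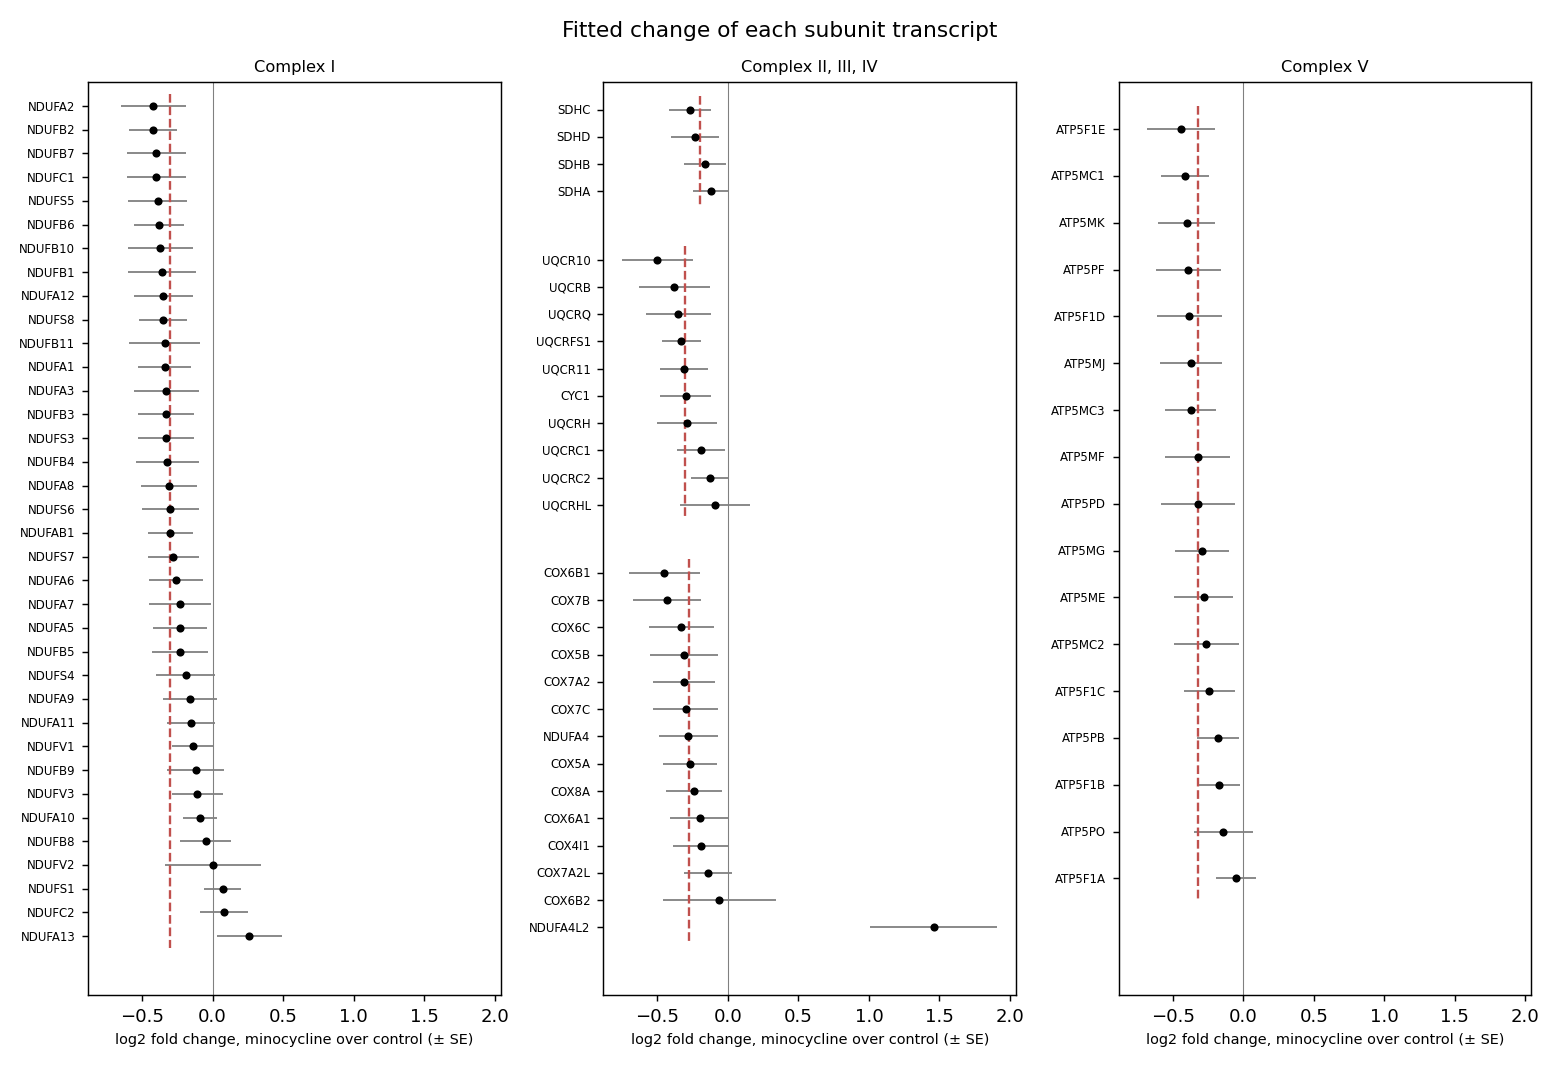
Fitted log2 fold change, minocycline over control, of all but 1 of the 82 tested subunit genes with its standard error, sorted within complexes I to V; red dashed lines are the medians over all tested genes of the complexes, -0.30, -0.19, -0.30, -0.27 and -0.32. NDUFA4L2 at 1.46 stands to the right of all others.

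Complex II, succinate dehydrogenase, showed the smallest median, and its 4 genes were all fitted lower. SDHA, the flavoprotein that oxidises succinate, had 228, 249 and 220 CPM in minocycline libraries and 227, 246 and 282 CPM in control libraries, with a log2 fold change of -0.12 ± 0.13. SDHB, the iron-sulphur subunit, had 90.3, 92.4 and 108 CPM in minocycline libraries and 89.8, 114 and 120 CPM in control libraries, with -0.16 ± 0.15. In both genes control replicate 1 was the lowest control and no higher than minocycline replicate 1. The membrane anchors lay further down. SDHC had 92.9, 84.2 and 90.5 CPM in minocycline libraries and 86.6, 110 and 125 CPM in control libraries, a log2 fold change of -0.27 ± 0.15. SDHD had 40.4, 47.4 and 57.5 CPM in minocycline libraries and 46.8, 65.0 and 58.3 CPM in control libraries, a log2 fold change of -0.23 ± 0.17. All 4 overlapped between the groups, and SDHC alone was called lower without control replicate 1 (-0.40, edgeR adjusted p = 0.0276). Pseudogenes of SDHA in the table held up to 593 counts, so part of its reads may be split.

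All 10 nuclear genes of complex III were fitted lower. UQCRFS1, the Rieske iron-sulphur protein (chromosome 19, 29696227 to 29704058, minus strand), had 161, 163 and 176.5 CPM in minocycline libraries and 176.1, 212 and 241 CPM in control libraries. Its highest minocycline value exceeded its lowest control value by under 1 CPM, so it came close to separating the groups. The log2 fold change was -0.33 ± 0.14 (edgeR adjusted p = 0.820), lower in 3 of 3 batches at -0.13, -0.37 and -0.45. A pseudogene in the table held up to 151 counts against 2952 to 3983 for the gene. Without control replicate 1 the change was -0.44 (edgeR adjusted p = 0.0175).

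UQCR10, a small subunit that helps hold the complex together, had the lowest fitted value of all subunits. It had 95.4, 87.2 and 133 CPM in minocycline libraries and 97.1, 162 and 187 CPM in control libraries, a log2 fold change of -0.50 ± 0.25. Its difference in batch 1 was -0.03, against -0.89 and -0.49 in batches 2 and 3. CYC1, cytochrome c1, which passes electrons to cytochrome c, had 257, 237 and 267 CPM in minocycline libraries and 226, 341 and 371 CPM in control libraries, a log2 fold change of -0.30 ± 0.18. Batch 1 ran the other way for CYC1, at 0.18. The structural core proteins UQCRC1 and UQCRC2 had -0.19 ± 0.17 and -0.13 ± 0.13. UQCRH, the acidic hinge protein, had -0.29 ± 0.21, and UQCRHL, an intronless copy of it with 126 to 199 counts, had -0.09 ± 0.25; reads of this near-identical pair may be split between them.

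In complex IV 14 of 19 genes could be tested, and 13 of them were fitted lower. COX6B1, which links the monomers of the complex IV dimer, had 97.5, 85.3 and 124 CPM in minocycline libraries and 87.3, 159 and 171 CPM in control libraries, a log2 fold change of -0.45 ± 0.25. COX7B, a small subunit needed for assembly, had 82.8, 72.4 and 113 CPM in minocycline libraries and 82.7, 125 and 154 CPM in control libraries, a log2 fold change of -0.43 ± 0.24. Control replicate 1 was within the minocycline range in both, and the batch 1 differences were 0.16 and 0.00. The isoform genes found in most tissues had COX4I1 at -0.19 ± 0.20, COX6A1 at -0.20 ± 0.21, COX7A2 at -0.31 ± 0.22 and COX8A at -0.24 ± 0.20. COX7A2L, a factor that joins complexes III and IV into supercomplexes, was at -0.14 ± 0.17.

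The tissue isoforms were absent or scarce in both groups. COX4I2, known for lung and low oxygen, COX6A2, of heart and skeletal muscle, and COX7B2, of testis, had 0 counts in all 6 libraries. This allows up to 3 counts in a library, or 0.168 to 0.173 CPM by total counts, without the scaling factors used for other CPM. COX7A1, of heart and skeletal muscle, had 2, 4 and 2 counts in minocycline libraries and 0, 2 and 2 in control libraries, and COX8C, of testis, had 5, 2 and 3 against 0, 2 and 0 in control libraries. Such counts do not allow a fold change. COX6B2, of testis, had 32, 20 and 49 counts in minocycline libraries and 22, 41 and 37 in control libraries, a log2 fold change of -0.06 ± 0.40. Per kb of transcript it stood at 1.20 ± 0.55 CPM with minocycline and 1.25 ± 0.43 CPM in controls (SD, n = 3), against 209 ± 40.3 and 285 ± 93.0 CPM for COX6B1.

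Of the 5 subunit genes fitted above 0, NDUFA4L2 lay furthest from the lean. It encodes a homologue of NDUFA4 that is known as a target of HIF1 in low oxygen, where it lowers oxygen use. Its 4 exons span bases 57628686 to 57634498 of chromosome 12 (minus strand). It had 49, 43 and 46 counts in minocycline libraries and 5, 19 and 23 in control libraries, or 2.55 ± 0.18 against 0.93 ± 0.59 CPM in controls (SD, n = 3). All minocycline libraries were above all control libraries, and control replicate 1 was far below the other controls. The log2 fold change was 1.46 ± 0.45 and did not pass, with an edgeR adjusted p of 0.820.

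The size of the NDUFA4L2 difference depended on control replicate 1, its direction did not. Batch 1 gave a log2 difference of 2.86, batch 2 gave 0.97 and batch 3 gave 0.87, higher in 3 of 3. Without control replicate 1 the log2 fold change was 1.01, with an edgeR adjusted p of 0.0395. It was also past the threshold with no filter on low counts (1.44, edgeR adjusted p = 0.0282), where 0.224% of all genes were called higher, and with 1 surrogate variable (2.21, edgeR adjusted p = 0.0135), where 0.482% were, and it missed it in the 13 other alternative fits that tested it. NDUFA4, the usual subunit, ran the other way, with 71.4, 66.1 and 94.6 CPM in minocycline libraries, 70.7, 92.1 and 119 CPM in control libraries and a log2 fold change of -0.28 ± 0.21. Per kb NDUFA4L2 stood at 2.70 ± 0.19 CPM with minocycline and 0.99 ± 0.62 CPM in controls, well below the 38.0 ± 7.46 and 46.2 ± 11.9 CPM of NDUFA4 (SD, n = 3).

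**Figure D3:**
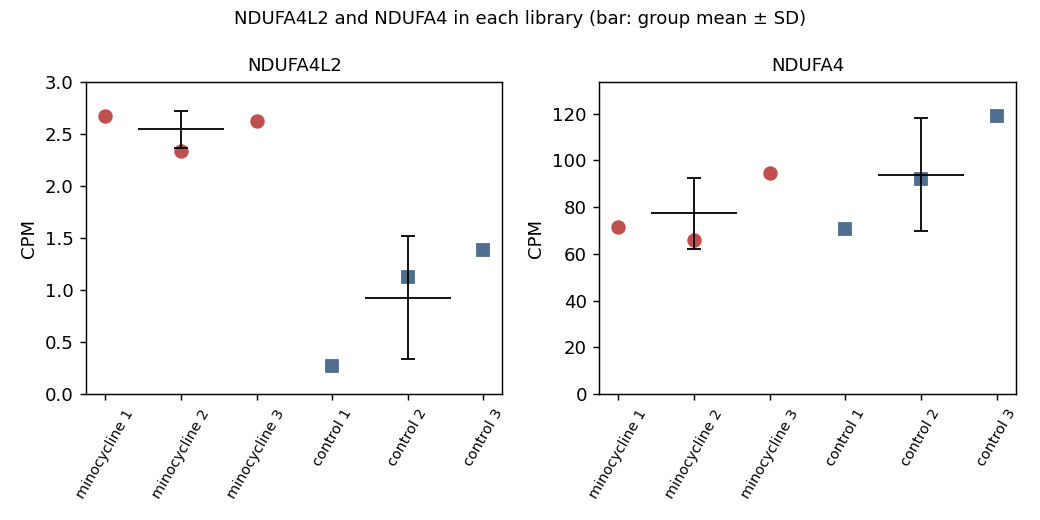
CPM of NDUFA4L2 and NDUFA4 in each library, minocycline in red and control in blue; bars give the group mean ± SD (n = 3). NDUFA4L2 lies at 2.34 to 2.68 CPM in minocycline libraries and 0.27 to 1.39 in control libraries, while the groups overlap for NDUFA4.

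SHMT2, a mitochondrial serine hydroxymethyltransferase gene on the plus strand, ends over the end of NDUFA4L2, and 3.5% of the exon bases of NDUFA4L2 overlap it. SHMT2 had 8798, 8280 and 8548 counts in minocycline libraries and 5171, 5690 and 6315 in control libraries, a log2 fold change of 0.50 ± 0.15 (edgeR adjusted p = 0.820). Without control replicate 1 it was 0.39, with an edgeR adjusted p of 0.0346. For each 1000 counts of SHMT2 there were 5.57, 5.19 and 5.38 counts of NDUFA4L2 in minocycline libraries and 0.967, 3.34 and 3.64 in control libraries. The ratios in control libraries rest on 5, 19 and 23 counts of NDUFA4L2. The sources used here do not say whether counting used strand, and the part of SHMT2 reads in the NDUFA4L2 counts was not tested.

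All 17 tested genes of complex V, ATP synthase, were fitted lower, and control replicate 3 held the highest level of each. ATP5MC1, a gene for the c subunit of the proton-driven ring (chromosome 17, 46970127 to 46973233, plus strand), had 105, 109 and 129 CPM in minocycline libraries and 118, 158 and 179 CPM in control libraries. Only control replicate 1 reached into the minocycline range. The log2 fold change was -0.41 ± 0.17 (edgeR adjusted p = 0.820), lower in 3 of 3 batches at -0.17, -0.54 and -0.47, and -0.56 without control replicate 1 (edgeR adjusted p = 0.00816). ATP5MC2 and ATP5MC3, which encode the same mature c subunit, had -0.26 ± 0.23 and -0.37 ± 0.18. Per kb of transcript ATP5MC1, ATP5MC2 and ATP5MC3 stood at 212 ± 24.1, 291 ± 50.0 and 230.1 ± 23.5 CPM with minocycline and 281 ± 57.1, 347 ± 107 and 296 ± 65.3 CPM in controls (SD, n = 3). The order of the 3 rests on the length used: with the length of the transcript tagged as canonical they stood at 177, 439 and 74.9 CPM per kb with minocycline and 235, 525 and 96.5 in controls.

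In the catalytic head and central stalk of ATP synthase the fitted values ran from -0.05 to -0.44. ATP5F1A, the alpha subunit, had 599, 628 and 641 CPM in minocycline libraries and 572, 646 and 722 CPM in control libraries, a log2 fold change of -0.05 ± 0.14. ATP5F1B, the beta subunit that carries the catalytic sites, had 991, 994 and 1000.5 CPM in minocycline libraries and 948, 1162 and 1247 CPM in control libraries, a log2 fold change of -0.17 ± 0.15. For ATP5F1B the minocycline libraries were close together, and the lowest control lay below them and the other controls above. In the stalk the gamma subunit ATP5F1C was at -0.24 ± 0.18 and the delta subunit ATP5F1D at -0.38 ± 0.23. ATP5F1E is the small epsilon subunit of the stalk. It had 105, 93.0 and 160 CPM in minocycline libraries and 116, 170 and 201 CPM in control libraries. Its log2 fold change of -0.44 ± 0.24 was the lowest fitted value of the complex. ATP5MK, a small subunit that helps ATP synthase dimers form, was at -0.40 ± 0.20. ATP5MGL, a single-exon relative of the subunit g gene, had at most 3 counts.

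Levels per length differed far more between subunits than between groups. Taken as CPM per kb of transcript (the median length of a gene's annotated coding transcripts) averaged over all libraries, the median was 82.1 in complex I, 107 in complex II, 172 in complex III, 206 in complex IV and 183 in complex V. ATP5F1B was highest of all, at 566 ± 2.61 CPM per kb with minocycline and 636 ± 87.7 in controls (SD, n = 3). UQCRH led complex III at 465 ± 98.6 against 570.4 ± 140.3 CPM per kb in controls, COX7C led complex IV at 436 ± 107 against 537 ± 140.2, NDUFB11 led complex I at 331 ± 77.3 against 419 ± 140, and SDHC led complex II at 194 ± 9.71 against 233 ± 42.2. In each of these genes the groups differed by less than the sum of their SDs. With the length of the canonical transcript in its place, the first gene of complexes I, III, IV and V was the same, but in complex II SDHB came first, at 95.4 CPM per kb with minocycline and 106 in controls, and SDHC stood at 68.2 with minocycline and 82.03 in controls. The medians of complexes I to V were then 82.1, 82.5, 92.0, 154 and 143. The lowest of complex I was NDUFV2, at 1.43 ± 0.44 CPM per kb with minocycline and 1.42 ± 0.22 in controls, with the overlap given above. In complex V the lowest was ATP5F1E, at 63.6 ± 19.1 CPM per kb with minocycline and 86.2 ± 22.8 in controls.

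**Figure D4:**
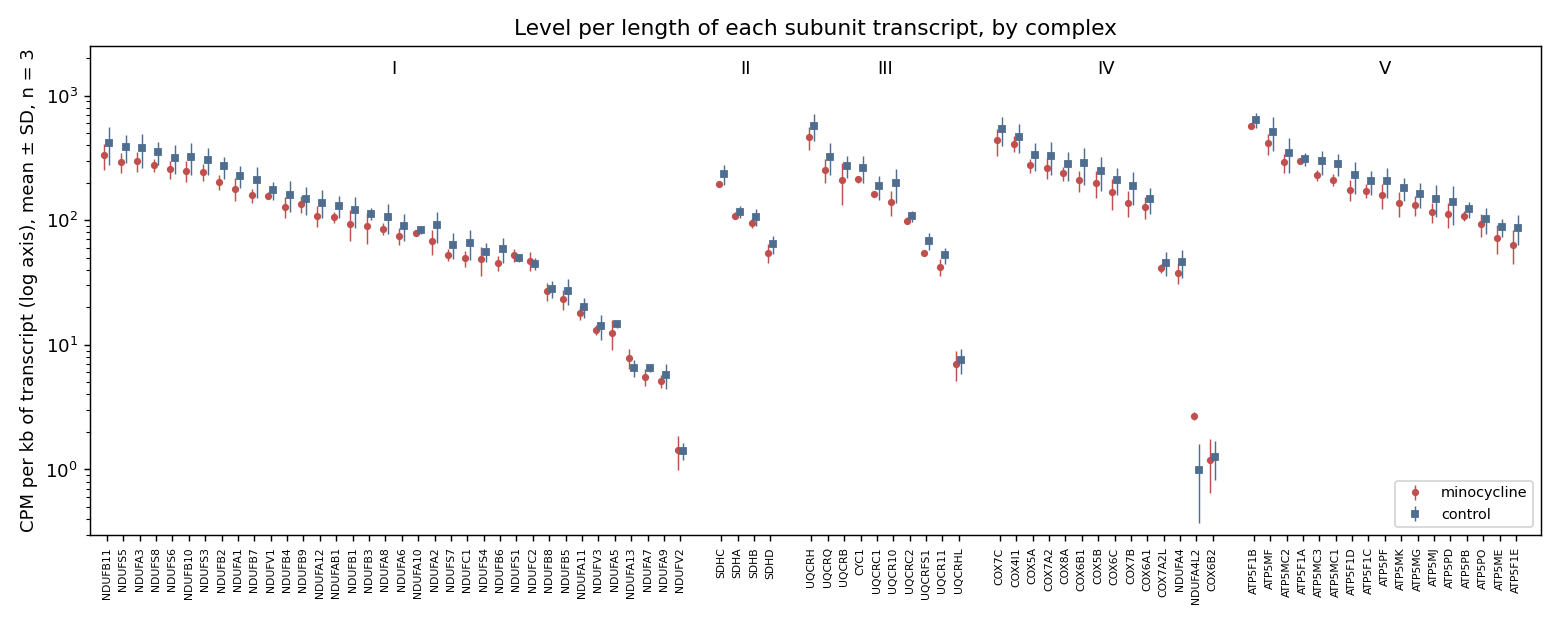
Level per length (CPM per kb of transcript, log axis; mean ± SD, n = 3) of all but 1 of the tested subunit genes, sorted within complexes I to V, minocycline as red circles and control as blue squares. Averaged over the libraries the genes run from 1.23 to 601 CPM per kb, and NDUFA4L2, at 2.70 with minocycline and 0.99 in controls, is the gene whose red point stands clear above the blue.

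Shorter subunit transcripts had lower fitted values. The 54 tested genes with a transcript under 1000 bases had a median log2 fold change of -0.32, and the 28 with longer ones had -0.16. Over all genes the same classes had medians of -0.10 (2559 genes) and 0.03 (14198 genes). Classed by the canonical transcript, the subunits had medians of -0.32 (48 genes) and -0.23 (34 genes), a smaller gap. Spearman's rho between length and log2 fold change was 0.48 over the 82 subunits and 0.26 over 16757 genes, a description across genes that share libraries. With length and GC content corrected in each library, the median of the subunits was -0.26, with 0 called. The same correction moved the median of all genes from 0.01 to -0.04. Presence of an NRF1 motif in the promoter went with a median of -0.28 (23 genes) against -0.30 without it (43 genes), an ETS motif with -0.29 (21) against -0.30 (45), and a YY1 motif with -0.19 (9) against -0.31 (57). These differences were not tested.

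**Figure D5:**
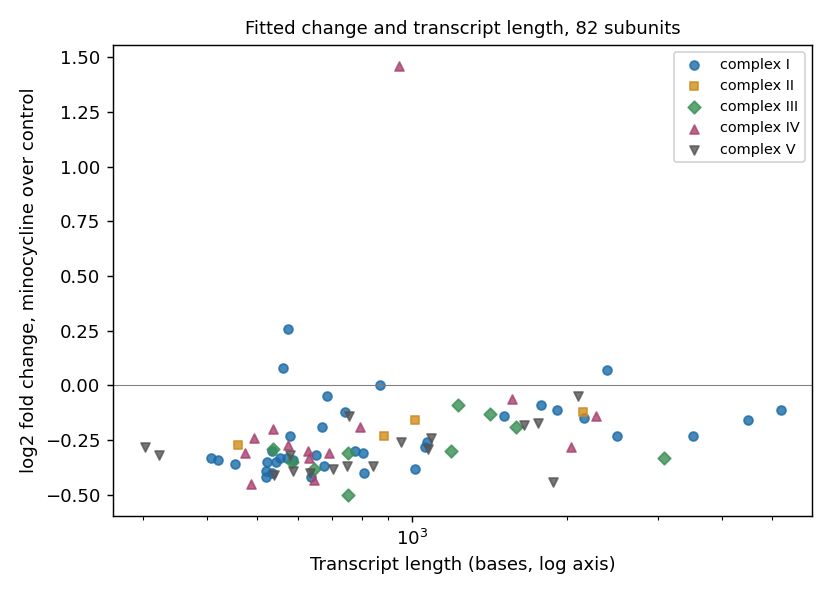
Fitted log2 fold change, minocycline over control, against transcript length (log axis) for the 82 tested subunit genes, coded by complex. Genes under 1000 bases have a median of -0.32 and longer ones of -0.16.

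Genes around the chain were counted from lists made beside the subunits. Of 59 assembly factors, which insert cofactors and join subunits, 46 were fitted lower and 13 higher, with a median log2 fold change of -0.15 and 0 called. The 13 subunits encoded in mitochondrial DNA had 10 lower and 3 higher, a median of -0.21 and 0 called. MT-ND4, of complex I, had 698, 805 and 717 CPM in minocycline libraries and 799, 1700.4 and 1286 CPM in control libraries (-0.77 ± 0.25, edgeR adjusted p = 0.820), and MT-CYB, of complex III, had 1282, 1157 and 1327 CPM in minocycline libraries and 1027, 1134 and 1062 CPM in control libraries (0.22 ± 0.14, edgeR adjusted p = 0.820). The groups overlapped for MT-ND4 and not for MT-CYB. Of the 13 genes, 1 had all minocycline libraries under all control libraries, against 3.56% of all genes. In 2, MT-CYB among them, all minocycline libraries were above all control libraries, against 5.74% of all genes. The fitted values of the 13 ran from -0.85 to 0.63, so these 2 named genes are not its ends. Without control replicate 1, where 8.34% of all genes were called lower and 9.52% higher, 14 assembly factors were called lower and 0 higher. In that fit 5 of the 13 mitochondrial subunits were called lower and 2 higher. MT-ND4 was then at -1.01 (edgeR adjusted p = 0.000779) and its neighbour MT-ND4L at -1.10 (edgeR adjusted p = 0.00114); MT-ND2, MT-ND6 and MT-ATP6 were also lower, and MT-ND5 and MT-ATP8 were higher, at 0.65 and 0.89. MT-ND4 and MT-ND4L, whose ends overlap on 1 strand, were also called lower with no filter on low counts, where 0.0566% of all genes were. MT-CYB was not called in any of these fits.

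The regulators of these genes were close to even, with 5 of 9 fitted lower, a median of -0.01 and 0 called. NRF1 was at -0.10 ± 0.13, GABPA at 0.22 ± 0.21 and YY1 at -0.08 ± 0.12. Without control replicate 1, GABPA alone of the 9 was called, higher at 0.50 (edgeR adjusted p = 0.0242). In that fit 9.52% of all genes were called higher, a similar share. The differences of GABPA within batches 1, 2 and 3 were -0.41, 0.55 and 0.64. PPARGC1A, a coactivator of mitochondrial biogenesis, was scarce, with 30, 28 and 23 counts in minocycline libraries and 30, 31 and 22 in control libraries. Of the carriers that serve the chain, 3 of 4 were fitted lower, with a median of -0.25 and 0 called. CYCS, cytochrome c, was at -0.27 ± 0.13, and the ADP/ATP exchangers SLC25A4 and SLC25A5 were at -0.27 ± 0.17 and -0.23 ± 0.17. The remaining exchanger, SLC25A6, ran the other way, at 0.51, the largest fitted value of the list. SLC25A4 and SLC25A5 were called lower without control replicate 1, at -0.43 and -0.38 (edgeR adjusted p = 0.0221 and 0.0389), where 8.34% of all genes were. SLC25A6 was not called in that fit.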

How the data were processed

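RNA of 3 minocycline and 3 control cultures of HEK293 cells was measured. The authors deposited whole-number counts per gene in 1 table without normalization. They worked on hg19, per the submitters' processing notes. Not given in the sources used here are the aligner, counting program, annotation, RNA selection and strand setting. Groups came from the treatment labels.

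The subunit genes and the lists of related genes were chosen with earlier results of these data known. Gene symbols matched 55538 of 57820 identifiers. Positions, transcript lengths (the median of a gene's basic coding transcripts) and GC content came from GENCODE on GRCh37, and promoters from RefSeq on GRCh37. Of the 82 promoters, 81 were found once in that genome.

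Low counts were removed with filterByExpr, TMM factors scaled the libraries, and minocycline was tested against control by the quasi-likelihood test of edgeR 4.0.16 (R 4.3.3) in a model of treatment alone. A gene was called at a Benjamini-Hochberg adjusted p under 0.05 over 17225 genes. CPM are TMM-scaled, and the SE is the log2 fold change over the square root of F. Differences within batches used log2 CPM with a prior count of 2. On simulated counts of 16919 genes the test recovered 60.2% of 98 genes changed by 2-fold and 87.0% of 100 changed by 4-fold; unchanged genes made up 8.18% of calls. Smaller changes were not simulated.

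Named genes followed a rule: those with the smallest p, the highest and lowest level per length and fold change in each complex, all of complex II, isoform families and core subunits. UQCRC1, UQCRC2, NDUFC2 and SHMT2 were named after their values were seen. ATP5F1C and ATP5F1D, given with the catalytic head and stalk, were also outside the rule. So were NDUFA7, NDUFB8, NDUFA11 and ATP5PO, named for their exon overlap. The values of 1 core subunit are not reported here; it stays in the counts and medians.

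The alternatives were scaling by RLE factors, upper quartiles or library size, the tools DESeq2 1.42.0 and limma-voom (limma 3.58.1), no filter, at least 10 counts in every library, the replicate number as a block, a per-library spline correction (4 degrees of freedom) for length and GC content, the same together with the block, 1 surrogate variable (sva 3.50.0), each library left out, and NDUFA4 with NDUFA4L2 placed in complex I. The labels give the replicate number as the batch, which pairs the libraries. Deviations from the group means correlated at -0.05, -0.29 and 0.30 in same-numbered pairs, and at 0.50 between control replicate 1 and minocycline replicate 2. Within groups the chi-square between library pairs was 5.80 to 63.6 for each degree of freedom, so none repeated another. The floor of 3 counts covers counting error only.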

Additional observations from a re-analysis of the deposited data

How the results depend on the processing

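No nuclear subunit gene was called lower in the main fit or in the 16 alternatives other than the fit without control replicate 1, which called 47. NDUFA4L2 was called higher in 3 fits, 1 gene each with no filter, with 1 surrogate variable and without control replicate 1. The replicate block, which uses the batch as the pairing, called 0 subunit genes in either direction and 1 gene lower, and changed no call of a named subunit. Over all genes, calls higher numbered 9 in the main fit, 44 with DESeq2, 75 with no filter, 26 with the length and GC correction, 42 with that correction and the replicate block, 83 with 1 surrogate variable, and 1 to 1681 with a library left out. Calls lower numbered 0 in the main fit, 3 with DESeq2, 19 with no filter, 3 with the length and GC correction and the replicate block, 8 with 1 surrogate variable, and 0 to 1473 with a library left out. Subunit calls with a library left out numbered 0 to 47 lower and 0 to 1 higher. The cause of these shifts was not tested.

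The median log2 fold change of the 82 subunits lay between -0.45 and -0.02 over the alternatives, and each median moved by less than the SD between libraries. That SD, 0.30 for the 82 genes, was as large as their main median of -0.29. A move within it is therefore no sign that the lean was stable. With 1 surrogate variable the lean was all but lost, at -0.02 for the 82 genes and 0.02 for complex IV. Scaling by library size moved the median of all genes to 0.08 and that of the subunits to -0.21. With NDUFA4 and NDUFA4L2 in complex I, its median was -0.28 and that of complex IV -0.29.

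Several uncalled values changed sign. With 1 surrogate variable the log2 fold change was 0.04 for NDUFB11 and ATP5F1A, 0.17 for UQCRHL, 2.2e-04 for COX7C, 0.41 for COX6B2, 0.10 for COX4I1 and ATP5MC2, 0.08 for COX6A1 and COX7A2L, 0.05 for COX8A, 0.03 for NDUFV1 and -0.02 for NDUFS1. NDUFV2 was at -0.01 with RLE factors, DESeq2, no filter and the replicate block, -0.04 with limma-voom, -4.5e-03 with the length and GC correction and -0.02 with that and the block. The same corrections put NDUFS1 at -0.02 and -0.03 and COX6B2 at 0.03 and 0.01, and library size scaling put COX6B2 and ATP5F1A at 0.02. With a library left out, NDUFV2 ranged from -0.19 to 0.23, UQCRHL from -0.35 to 0.02, COX6B2 from -0.47 to 0.22, ATP5F1A from -0.14 to 0.02 and NDUFS1 from -0.03 to 0.12. Whether the test could call changes near the subunits' median in 3 libraries a group was not tested.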
